A study of Homo sapiens with 3 samples.

Results

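The 10 genes described here encode kinases that the CDK2 inhibitor dinaciclib binds, kinases of the same transcriptional class, and cyclins that activate CDK2. They were taken by name, as CDK1, CDK2, CDK5, CDK7, CDK9, CDK12, CDK13, CCNE1, CCNE2 and CCNA2, and all 10 were found among the 29689 gene symbols of the deposited expression table. RNAseq was performed on tumors of SUM-149, a triple-negative breast cancer (TNBC) cell line, grown with Matrigel in the mammary fat pads of female Nu/Nu (nude) mice, hosts that lack mature T cells. There was 1 library from vehicle-treated tumor tissue, 1 after 10 days of dinaciclib (CDK2i) and 1 after 10 days of an EZH2 inhibitor (EZH2i). The label of the vehicle tumor gives no duration, so whether it was matched in time is not known. How many animals each library stands for is not given in the sources used here. The sample label names EPZ6438 as the EZH2i, whereas the study names GSK343 for its SUM-149 growth experiment, so the identity of this drug rests on the label. All 3 tumors share the cell line, the host strain and the injection site. With 1 library per condition no difference below has a replicate check, no p-value was computed, and a difference between drugs cannot be told apart from a difference between single tumors.

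Cyclin-dependent kinases (CDKs) are inactive alone and are switched on by a cyclin partner. CDK2 pairs with cyclin E at the entry into S phase and with cyclin A during S phase, and CDK1 pairs with cyclins A and B to drive mitosis. CDK7, CDK9, CDK12 and CDK13 phosphorylate the tail of RNA polymerase II, and CDK5 acts mainly in neurons. CDK1, CCNA2, CCNE1 and CCNE2 are made in a cell cycle-dependent manner, so that their transcripts are low in resting cells. Dinaciclib blocks the kinase proteins, and the values here are transcript levels, not kinase activity.

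The values are log2 FPKM, fragment counts normalized to transcript length and sequencing depth, a scale on which levels of different genes can be compared. From the steps of 1 fragment among weakly expressed genes, the depth was between 16.8 and 19.1 (in units of 1e6 fragments) per library. Expressed genes, 11109 in all, are those whose log2 FPKM averaged above 1 over the 3 tumors and in none sat at −9, the lowest listed value. Over these the median difference from vehicle was −0.11 in CDK2i and 0.19 in EZH2i, and the differences of the members relative to these medians are given with the counts. Ribosomal protein genes made up 15.5% of all FPKM in vehicle, 8.74% with CDK2i and 8.37% with EZH2i, and mitochondrially encoded genes 21.6%, 14.2% and 19.1%. Their part in the differences was not tested. Across the 10204 expressed genes with an annotated transcript that encode no ribosomal protein, the difference in EZH2i had a Spearman correlation of −0.58 with GC content and 0.49 with transcript length, against 0.04 and 0.09 in CDK2i. Genes are not independent replicates, so these correlations describe the 3 libraries only. All 8 listed markers of breast epithelial tumor cells were at log2 FPKM 4.89 or higher in every tumor, and they summed to 5279 FPKM in the vehicle tumor, 12406 with CDK2i and 4971 with EZH2i, with the basal keratins KRT5, KRT14 and KRT17 more than 2-fold higher in CDK2i than in vehicle. ESR1, which encodes ERα, was at −0.34, 0.14 and −0.07, while ERBB2 was measurable at 4.93, 4.92 and 4.46. PGR was listed at −9 in vehicle and at −8.04 and −7.91 in the treated tumors. These PGR values stand for about 0, 1 and 1 fragments, too few to show a difference. The 15 fibroblast, endothelial and immune markers in the table summed to 36.6 FPKM in the vehicle tumor, 50.1 with CDK2i and 34.8 with EZH2i, of which COL1A1 alone held 13.0, 25.1 and 16.1 FPKM. PTPRC and CD68, which define leukocytes and macrophages, were at log2 FPKM −4.98 or lower in all 3 tumors, and CD14, found on monocytes, was at 3.004, 2.99 and 1.65. Host cells in these tumors are mouse cells, whereas the values were made with a human reference. These markers are therefore no measure of host fibroblasts, vessels or immune cells. Whether mouse reads were removed or counted under human symbols is not given in the sources used here. The part of non-tumor cells in the results was not tested, and in a whole tumor fewer cells of a type and less RNA per cell cannot be told apart.

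In the vehicle tumor the 10 genes spanned a wide range, with CDK9 highest and CCNE2 lowest. CDK9 stood at 37.8 FPKM, above 84.5% of the expressed genes, followed by CDK1 at 19.1, CDK7 at 14.2, CCNA2 at 12.4 and CDK5 at 11.1 FPKM. CDK2 itself was at 7.38 FPKM, above 41.0% of the expressed genes, next to CCNE1 at 6.30, CDK13 at 5.11 and CDK12 at 4.44 FPKM. CCNE2 was at 1.31 FPKM, and it was the 1 member whose mean level did not reach the limit for expressed genes. In place of a replicate error, each gene was given a spread, which is the SD of EZH2i minus CDK2i over the 200 expressed genes closest to it in mean level and so includes differences between the drugs. The spread is not an error of a gap between genes within 1 library, and for such gaps it serves only as a scale. On that scale only 2 gaps between neighbors in the vehicle order were beyond the spread. They were that of 0.99 between CDK9 and CDK1 and that of 1.77 between CDK12 and CCNE2.

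The order was different in the treated tumors. In CDK2i, CDK9 was still highest but at 21.0 FPKM, and CCNE1 was next to last at 2.89 FPKM. In EZH2i, CDK1 was highest at 40.7 FPKM and CCNA2 next at 29.3, ahead of CDK9 at 27.1 FPKM, and the gaps between these 3 genes were within the spread. This order was not corrected for GC content, which is 35.4% for CDK1, 41.9% for CCNA2 and 55.1% for CDK9. CCNE2 was lowest in every tumor, and its gap to the next gene was beyond the spread in each.

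**Figure D1:**
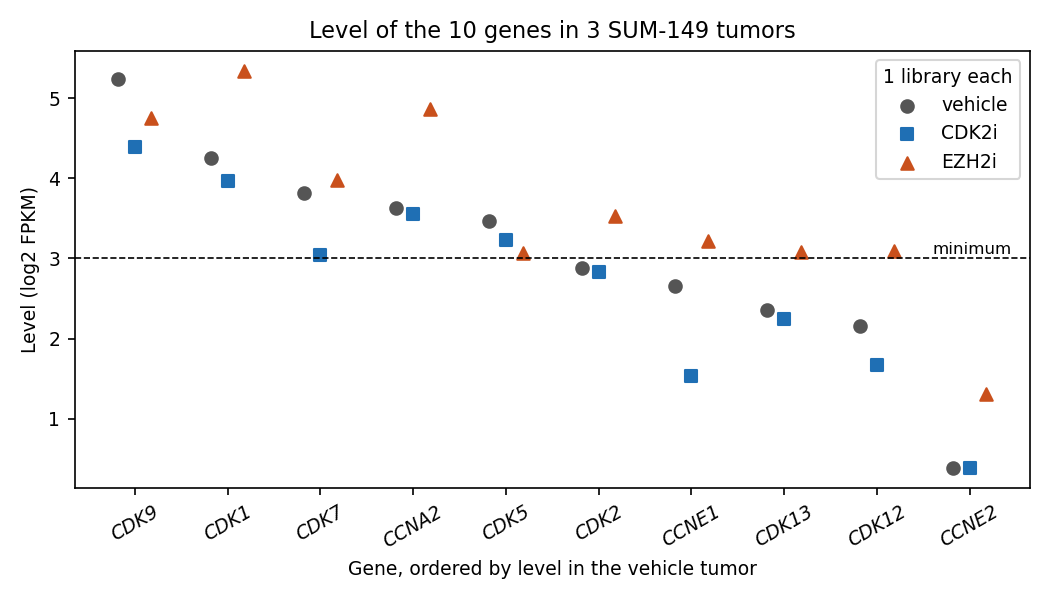
Level of each gene in log2 FPKM (vertical axis) in the vehicle (circle), CDK2i (square) and EZH2i (triangle) tumors, 1 library each, with genes ordered by their vehicle level and a dashed line at the expression minimum of log2 FPKM 3. CDK1 and CCNA2 lie highest in EZH2i, at 5.35 and 4.87, and CCNE1 has its lowest value in CDK2i, at 1.53.

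CDK1, the kinase of mitotic entry, was slightly lower in CDK2i than in vehicle and higher in EZH2i. CDK1 (chromosome 10 of GRCh37, 62538089 to 62554610) had a level of 19.1 FPKM in the vehicle tumor, 15.7 with CDK2i and 40.7 with EZH2i, on about 604, 568 and 1348 fragments. The log2 difference from vehicle was −0.28 in CDK2i, with a 95% interval for counting error of −0.45 to −0.11, and 1.10 in EZH2i, with an interval of 0.96 to 1.24. Its spread was 0.63, so the difference in EZH2i was beyond the spread and that in CDK2i was within it. The intervals cover counting error only, not the variation between tumors.

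CCNA2 encodes cyclin A2, which activates CDK2 in S phase and CDK1 in G2. It followed the same order as CDK1. CCNA2 (chromosome 4, 122737599 to 122745038) had a level of 12.4 FPKM in the vehicle tumor, 11.8 with CDK2i and 29.3 with EZH2i. The difference was −0.08 in CDK2i (−0.24 to 0.09), where counting error alone covers it, and 1.23 in EZH2i (1.09 to 1.38), against a spread of 0.69. CCNA2 and CDK1 were each other's nearest gene among the members, with a Euclidean distance of 0.24 between their pairs of differences from vehicle. The span of CCNA2 overlaps that of EXOSC9 on the opposite strand by 578 bases, and EXOSC9 was at log2 FPKM 2.24, 1.72 and 3.17 in the same order of tumors. The ratio of CCNA2 to CDK1 was 0.65 in vehicle, 0.75 in CDK2i and 0.72 in EZH2i.

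CDK1 and CCNA2 were the members past both thresholds that the study used to call genes, a fold change above 2 and a log2 FPKM above 3 in the higher tumor of the pair. The 250 bases before their transcription starts are shown because these were the 2 members that passed in EZH2i. For CDK1 the more upstream of its annotated starts was taken. Windows before its other starts were not used for the members, so the matches and counts for CDK1 hold for this start only. Capitals mark matches on either strand to the CHR element (searched as TTTGAA, or as TTCGAA, or as CTTGAA), which is bound by cell cycle repressor and activator complexes, and to the CCAAT box. The sequences are from RefSeq on GRCh38.p14, CDK1 on the plus strand (chr10:60778081-60778330) and CCNA2 on the minus strand (chr4:121823884-121824133).
CDK1: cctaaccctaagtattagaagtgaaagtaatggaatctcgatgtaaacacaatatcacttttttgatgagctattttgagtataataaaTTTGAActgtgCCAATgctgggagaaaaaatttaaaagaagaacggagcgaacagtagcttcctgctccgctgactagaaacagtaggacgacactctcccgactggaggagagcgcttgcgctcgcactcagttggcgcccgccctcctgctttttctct
CCNA2: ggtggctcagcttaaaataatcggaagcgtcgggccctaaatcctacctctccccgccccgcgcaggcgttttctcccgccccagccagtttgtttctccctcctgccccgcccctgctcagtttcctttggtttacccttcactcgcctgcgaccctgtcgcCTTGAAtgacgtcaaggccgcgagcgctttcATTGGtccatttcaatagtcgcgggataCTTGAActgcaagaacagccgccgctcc
The CDK1 window held 1 match to TTTGAA that began 161 bases before the start and 1 CCAAT that began 150 bases before it. The CCNA2 window held CTTGAA beginning 87 and 28 bases before the start, and ATTGG, the reverse complement of the CCAAT box, beginning 56 bases before it. Of 35114 promoter windows of this length, 21.9% held a CHR match and 32.0% a CCAAT match, so that such letters are frequent. A promoter window was found for 8 of the 10 members, of which 3 held a CHR match (CDK1, CDK5 and CCNA2) and 2 a CCAAT match (CDK1 and CCNA2). None of the 8 held an E2F consensus (TTTCCCGC, TTTGGCGC, TTTGCCGC or TTTCGCGC), which 2.8% of all windows held. The matches are a description of letters and were not tested as binding sites.

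CDK2, the kinase for which the inhibitor is named in the study, was at nearly the same level in the vehicle and CDK2i tumors. CDK2 (chromosome 12, 56360565 to 56366573) had a level of 7.38 FPKM in the vehicle tumor, 7.12 with CDK2i and 11.6 with EZH2i. The difference was −0.05 in CDK2i (−0.29 to 0.19) and 0.65 in EZH2i (0.43 to 0.87), both within its spread of 0.78. The sign in CDK2i turned with the scaling, from −0.20 to 0.19 over the alternatives tried, while that in EZH2i ran from 0.45 to 0.89. Among the members CDK13 was nearest to CDK2 at a distance of 0.10. Of 4934 expressed genes within 1 log2 unit of its mean level, the nearest were TCF19, AEN and SPIN3, at distances of 0.01, 0.01 and 0.02. Each distance is taken over only 2 differences, which share the vehicle library. CDK2 lies within the annotated span of PMEL, on the opposite strand and at log2 FPKM 0.67 or lower in each tumor, and whether counting used strand is not given in the sources used here.

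CDK5 is bound by dinaciclib and is activated by the neuronal proteins p35 and p39 rather than by a cyclin. CDK5 (chromosome 7, 150750902 to 150754984) had a level of 11.1 FPKM in the vehicle tumor, 9.39 with CDK2i and 8.37 with EZH2i. The difference was −0.24 in CDK2i (−0.52 to 0.05) and −0.40 in EZH2i (−0.71 to −0.10), both within its spread of 0.85. CDK5 and CDK9 were the members below vehicle in EZH2i. Their transcripts have GC contents of 56.3% for CDK5 and 55.1% for CDK9, and lengths of 1122 and 2483 bases. Expressed genes with GC contents near theirs had median EZH2i differences of −0.08 (CDK5) and −0.01 (CDK9). For genes near their lengths the medians were −0.26 and 0.14. With the trend over GC content and length removed, CDK5 was at 0.01 in CDK2i and −0.05 in EZH2i, while CDK9 was at −0.45 in EZH2i, close to its deposited −0.48. The span of CDK5 overlaps that of SLC4A2 on the opposite strand, which was at log2 FPKM 5.12 in the vehicle tumor, 5.72 with CDK2i and 4.98 with EZH2i.

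Cyclin E1 was the member with the largest difference in the dinaciclib tumor. CCNE1 (chromosome 19, 30302898 to 30315219) had a level of 6.30 FPKM in the vehicle tumor, 2.89 with CDK2i and 9.31 with EZH2i, on about 207, 108 and 319 fragments. It was thus 2.18-fold lower in CDK2i than in vehicle, a log2 difference of −1.12 (−1.48 to −0.78) against a spread of 0.84. Relative to the median expressed gene the difference was −1.01, and 8.6% of the expressed genes had a lower one. CCNE1 passed the fold threshold but not the expression minimum, since its higher value, log2 FPKM 2.65 in vehicle, lay below 3. In EZH2i the difference was 0.56 (0.31 to 0.82), within the spread.

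For cyclin E2, the paralog of cyclin E1, the counting interval in CDK2i did not reach the difference of CCNE1. CCNE2 was at 1.31 FPKM in the vehicle tumor, 1.30 with CDK2i and 2.47 with EZH2i, on about 59, 67 and 116 fragments. The difference in CDK2i was −0.004 with an interval of −0.53 to 0.53, which is the widest of the 10 genes, and that in EZH2i was 0.92 (0.45 to 1.39), within its spread of 1.10. CCNE2 overlaps INTS8 and NDUFAF6 on the opposite strand, both more abundant than CCNE2 in every tumor at log2 FPKM 2.22 or higher. The ratio of CCNE1 to CCNE2 was 4.82 in vehicle, 2.22 in CDK2i and 3.77 in EZH2i. Per CDK2 transcript, CCNE1 was at 0.85 in vehicle, 0.41 in CDK2i and 0.80 in EZH2i, while CCNA2 was at 1.69, 1.66 and 2.52. These ratios are taken within 1 library and do not move with the scaling between libraries, but they were not corrected for GC content and length.

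The transcriptional kinases CDK7 and CDK9 were lower in the CDK2i tumor than in vehicle. CDK9 with cyclin T forms P-TEFb, which releases paused RNA polymerase II. CDK9 (chromosome 9, 130547958 to 130553071) had a level of 37.8 FPKM in the vehicle tumor, 21.0 with CDK2i and 27.1 with EZH2i. The difference was −0.85 in CDK2i (−0.96 to −0.73), just beyond its spread of 0.83, and −0.48 in EZH2i (−0.59 to −0.37), within it. CDK9 was below vehicle in both treated tumors under each of the 6 scalings, pseudocounts and corrections tried, of which the pseudocounts cannot turn a sign. Its differences lay between −0.99 and −0.63 in CDK2i and between −0.67 and −0.24 in EZH2i. Both comparisons share the vehicle library. CDK7 is the kinase of the general transcription factor TFIIH and also activates other CDKs. CDK7 (chromosome 5, 68530622 to 68573257) had a level of 14.2 FPKM in the vehicle tumor, 8.26 with CDK2i and 15.7 with EZH2i. The difference was −0.78 in CDK2i (−1.03 to −0.53), close to its spread of 0.76, and 0.15 in EZH2i (−0.06 to 0.37), where the sign turned over the alternatives. Relative to the median expressed gene the CDK2i differences were −0.74 for CDK9 and −0.67 for CDK7, both within the spread. With the trend over GC content and length removed they were −0.63 and −0.55, also within it.

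CDK12 and its paralog CDK13, which pair with cyclin K and support elongation through long genes, were both higher in EZH2i than in vehicle with the deposited scaling. CDK12 (chromosome 17, 37617739 to 37723812) had a level of 4.44 FPKM in the vehicle tumor, 3.18 with CDK2i and 8.57 with EZH2i. The difference was −0.48 in CDK2i (−0.65 to −0.31) and 0.95 in EZH2i (0.81 to 1.09), both within its spread of 1.01. CDK13 (chromosome 7, 39989720 to 40139179) had a level of 5.11 FPKM in the vehicle tumor, 4.73 with CDK2i and 8.49 with EZH2i. The difference was −0.11 in CDK2i (−0.25 to 0.03) and 0.73 in EZH2i (0.61 to 0.86), both within its spread of 1.03. The ratio of CDK12 to CDK13 was 0.87 in vehicle, 0.67 in CDK2i and 1.01 in EZH2i. The ratio of CDK9 to CDK12 was 8.50 in vehicle, 6.59 in CDK2i and 3.16 in EZH2i. Neither ratio was corrected for GC content and length. With that trend removed, the EZH2i differences were −0.45 for CDK9, 0.27 for CDK12 and −0.04 for CDK13.

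The members were next counted against all genes of the table. In CDK2i, 5 members reached the expression minimum and 0 of them passed the fold threshold, whereas of the 6632 genes that reached the minimum in this comparison 3.27% passed as higher, 8.07% as lower and 11.3% in one or the other direction. In EZH2i, 9 members reached the minimum and 2 passed, both higher, against 8.93% higher, 4.42% lower and 13.4% in all among 7414 genes. The direction of these calls moved with the scaling. Of the genes past both thresholds, 28.9% were higher in CDK2i and 66.9% in EZH2i with the deposited values, against 41.1% and 38.8% after centring on the median expressed gene, 46.1% and 88.9% with equal summed FPKM, 17.6% and 71.4% with equal summed FPKM without ribosomal protein and mitochondrially encoded genes, and 47.2% and 41.6% with the trend over GC content and length removed. Regardless of size, all 9 expressed members were lower than vehicle in CDK2i, as were 58.0% of the 11109 expressed genes, with 41.9% higher. In EZH2i 7 of the 9 were higher and 2 lower, against 61.5% and 38.5% of the expressed genes. Relative to the median expressed gene, 4 of the 10 members were above it in CDK2i and 7 in EZH2i. In CDK2i these relative differences were −1.01 for CCNE1, −0.74 for CDK9, −0.67 for CDK7, −0.37 for CDK12, −0.17 for CDK1 and −0.13 for CDK5, and between 0.001 and 0.11 for the other members. In EZH2i they were 1.04 for CCNA2, 0.90 for CDK1, 0.76 for CDK12, 0.73 for CCNE2, 0.54 for CDK13, 0.46 for CDK2 and 0.37 for CCNE1, and −0.04 for CDK7, −0.60 for CDK5 and −0.67 for CDK9. The median difference of the 10 members was −0.26 in CDK2i and 0.69 in EZH2i, against −0.11 and 0.19 over the expressed genes.

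The treated tumors were also compared directly, without the vehicle library. EZH2i minus CDK2i, 9 of the 10 members were higher in EZH2i, from 0.37 for CDK9 to 1.69 for CCNE1, and CDK5 was at −0.17. Of the expressed genes, 66.9% were higher and 33.0% lower in EZH2i, with a median difference of 0.35. CDK1, CDK12, CCNE1 and CCNA2 passed both thresholds, at 1.37, 1.43, 1.69 and 1.31, which is 4 of the 9 members that reached the minimum, against 17.5% higher, 6.53% lower and 24.1% in all of 7394 genes. With the GC and length trend taken out, CDK1 was at 0.75, CDK12 at 0.67 and CCNA2 at 0.66, below a fold of 2, and CCNE1 at 1.43. Relative to the median expressed gene, CCNA2 was at 0.96 and the other 3 remained past a fold of 2, at 1.02 for CDK1, 1.08 for CDK12 and 1.33 for CCNE1. The 7 kinases together were at 99.0 FPKM in the vehicle tumor, 69.4 with CDK2i and 120.6 with EZH2i, and the 3 cyclins at 20.05, 15.98 and 41.06 FPKM. The cyclin sums leave out CCNA1, the other cyclin A gene, which alone was at 57.8, 74.9 and 57.0 FPKM. They are therefore not the total of the E and A cyclin transcripts.

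**Figure D2:**
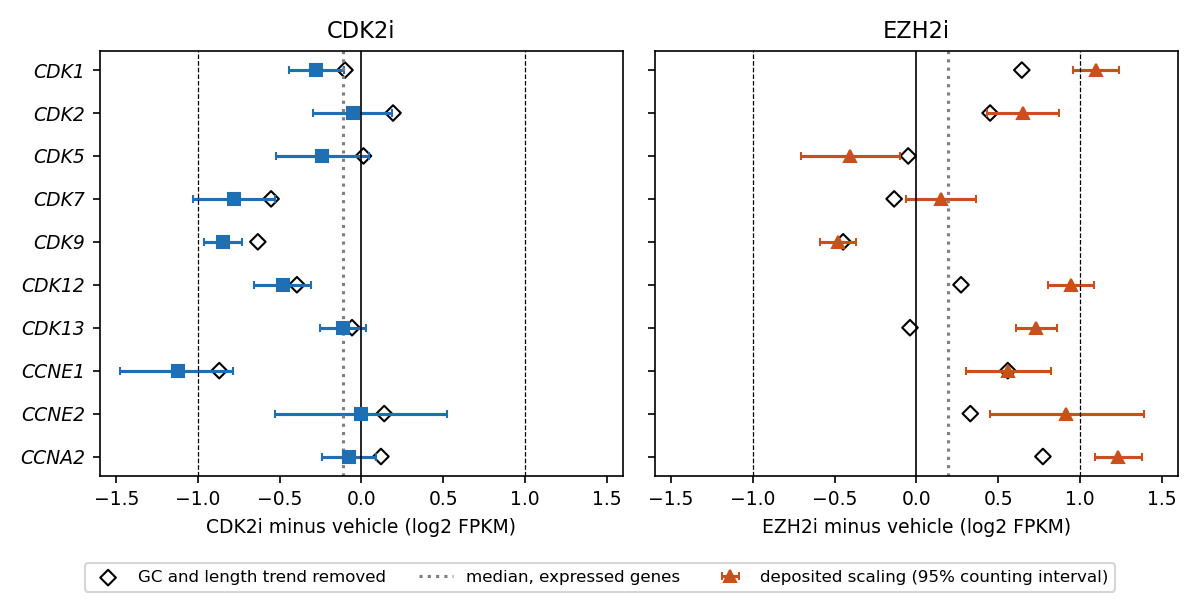
Difference from vehicle in log2 FPKM (horizontal axis) of each gene in CDK2i and EZH2i, with filled symbols for the deposited scaling, bars for the 95% interval of counting error, open diamonds for values after removal of the trend over GC content and length, a dotted line at the median expressed gene and dashed lines at a fold change of 2. In EZH2i the diamonds of CDK1, CDK12, CDK13 and CCNA2 sit left of the filled symbols, at 0.65, 0.27, −0.04 and 0.77.

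GC content and transcript length moved with the difference in EZH2i. The transcripts of CDK1 and CCNE2 have GC contents of 35.4% and 34.6%, and those of CDK12 and CDK13 are 8287 and 9525 bases long, whereas CDK9 has a GC content of 55.1%. With the trend over both properties removed, CDK13 went from 0.73 to −0.04 in EZH2i, CDK12 from 0.95 to 0.27 and CCNE2 from 0.92 to 0.33. CDK1 and CCNA2 kept values of 0.65 and 0.77, below a fold of 2, so that 0 members passed both thresholds in EZH2i. CCNE1 stayed at 0.56. In CDK2i the correction moved CCNE1 to −0.87, CDK9 to −0.63 and CDK7 to −0.55.

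**Figure D3:**
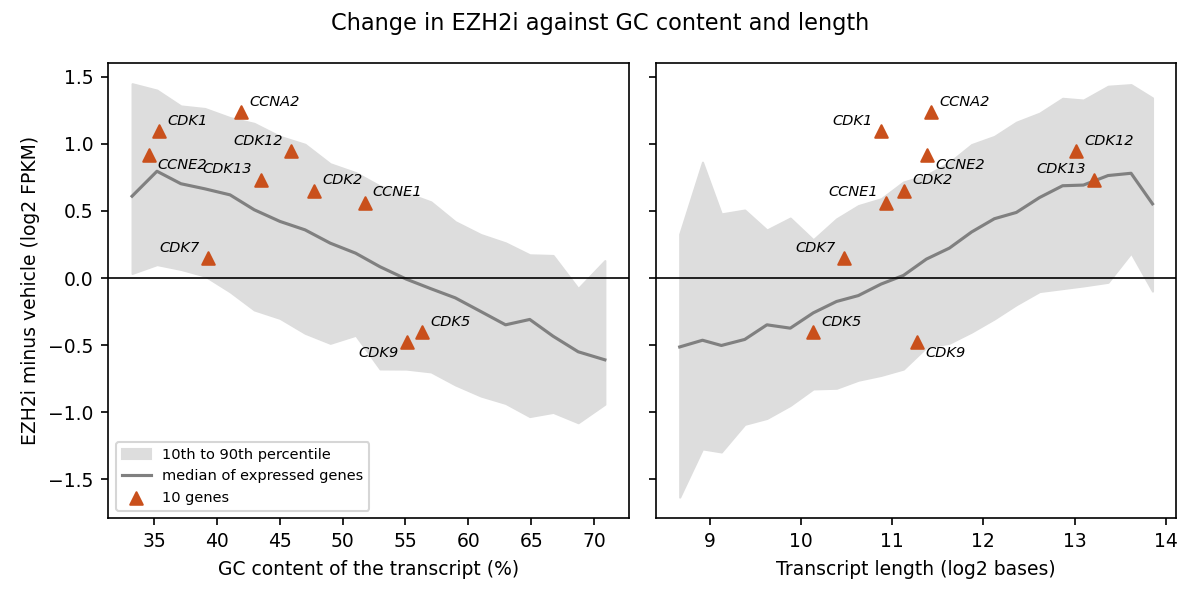
Difference of EZH2i from vehicle in log2 FPKM (vertical axis) against the GC content in percent (left) and the length in log2 bases (right) of the transcript, for the 10 genes (triangles) and for the expressed genes in bins of at least 20 genes (line for the median, shading from the 10th to the 90th percentile). CDK13 lies close to the median of genes of its length, and CDK1 and CCNA2 lie above the shading for their lengths, while CDK1 is within it for its GC content.

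The proteins that act with these kinases were examined as lists chosen by function. Of the 10 cyclins and activators that bind the member kinases, 8 were expressed. In CDK2i 3 reached the minimum and 0 passed both thresholds, against 11.3% of all genes. In EZH2i 7 reached it, and CCNB1 and CCNT1 passed as higher, against 8.93% of all genes. CCNB1, the mitotic partner of CDK1, was at 34.4 FPKM in the vehicle tumor, 22.3 with CDK2i and 69.8 with EZH2i, differences of −0.62 and 1.02. CCNT1, the cyclin T1 of P-TEFb, was at 3.80, 2.41 and 8.46 FPKM, differences of −0.66 and 1.15. After removal of the GC and length trend the EZH2i differences were 0.67 for CCNB1 and 0.36 for CCNT1, both below a fold of 2. Among the 8 expressed genes, the highest difference in EZH2i, 1.26, was that of CCNT2, whose level stayed below the minimum, and the lowest in CDK2i was −0.75 for CCNB2. CCNA1, the cyclin A found mainly in the germ line, was more abundant than CCNA2 in all 3 tumors, at 57.8, 74.9 and 57.0 FPKM. The CDK5 activators CDK5R1 and CDK5R2 were not among the expressed genes. CDK5R1 was at 0.73, 1.33 and 2.55 FPKM, differences of 0.86 and 1.80. CDK5R2 was at 0.31, 0.04 and 0.30 FPKM, on only about 13, 2 and 13 fragments. Its differences were −2.89 in CDK2i, with a counting interval of −6.08 to −0.75, and −0.06 in EZH2i.

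Among the regulators of P-TEFb, HEXIM1 and MEPCE were more than 2-fold lower in CDK2i than in vehicle. All 10 genes were expressed. HEXIM1 and MEPCE passed both thresholds as lower in CDK2i, 2 of the 5 that reached the minimum, against 8.07% of all genes. AFF4 passed as higher in EZH2i, 1 of 7 against 8.93%. HEXIM1 holds P-TEFb inactive within the 7SK RNA particle, and MEPCE caps and stabilizes 7SK RNA. HEXIM1 was at 26.7 FPKM in the vehicle tumor, 6.02 with CDK2i and 23.4 with EZH2i, a difference of −2.15 in CDK2i (−2.31 to −1.99) and −0.19 in EZH2i. MEPCE was at 38.2, 9.51 and 36.96 FPKM, differences of −2.01 (−2.15 to −1.87) and −0.05. LARP7, another protein of the particle, had differences of −0.41 and 0.41. HEXIM1 and MEPCE were beyond their spreads of 0.69 and 0.61 in CDK2i, and LARP7 was within its spread of 0.74. The median of the 10 genes was −0.50 in CDK2i and 0.38 in EZH2i, or −0.41 and 0.10 with the GC and length trend removed. AFF4, a scaffold of the super elongation complex, was at 4.997 FPKM in the vehicle tumor, 5.66 with CDK2i and 11.4 with EZH2i, differences of 0.18 and 1.20, and the latter was 0.36, below a fold of 2, after removal of the trend. HEXIM2, a paralog of HEXIM1, had the lowest difference of the list in EZH2i at −0.72. SUPT5H, a substrate of CDK9, had the highest difference of the list in CDK2i at 0.19.

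The 9 regulators of CDK1, CDK2 and cyclin E were all expressed. CKS2 passed both thresholds as lower in CDK2i, 1 of the 4 that reached the minimum, against 8.07% of all genes. WEE1 passed as higher in EZH2i, 1 of 7 against 8.93%. CKS2, a small subunit of CDK complexes, was at 274.8 FPKM in the vehicle tumor, 84.6 with CDK2i and 169.4 with EZH2i, differences of −1.70 and −0.70, the lowest of the list in both tumors. WEE1, which inhibits CDK1 and CDK2 by phosphorylation, was at 4.74, 2.71 and 11.9 FPKM, differences of −0.81 and 1.32, and the latter was 0.91, below a fold of 2, with the trend removed. PKMYT1, a related inhibitory kinase, had the highest difference of the list in CDK2i at 0.35. The list had a median of −0.17 with CDK2i and 0.52 with EZH2i, or 0.05 and 0.29 with the trend removed. Among the 14 other CDK genes, 11 were expressed. In CDK2i 5 reached the minimum and 0 passed both thresholds, against 11.3% of all genes. In EZH2i CDK6 passed as higher, 1 of the 7 that reached the minimum, against 8.93%. CDK6, which pairs with D cyclins in G1, was at 2.84 FPKM in the vehicle tumor, 4.62 with CDK2i and 13.9 with EZH2i, differences of 0.70 and 2.30, and the latter was 1.41 with the trend removed. CDK20 had the lowest difference of the expressed genes in both tumors, at −1.19 in CDK2i and −0.32 in EZH2i. CDK11A and CDK11B are near-identical copies and reads could be split between them.

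Genes that mark dividing cells were higher than vehicle in EZH2i, as CDK1 and CCNA2 were. All 10 of the list were expressed and higher, as were 61.5% of all expressed genes, and MKI67, TOP2A, BUB1 and RRM2 passed both thresholds, 4 of 10 against 8.93% of all genes. MKI67, which encodes the Ki-67 antigen, was at 8.35 FPKM in the vehicle tumor, 6.01 with CDK2i and 23.8 with EZH2i, differences of −0.47 and 1.51. The EZH2i differences of TOP2A, BUB1 and RRM2 were 1.28, 1.23 and 1.32. None of these 4 passed with the GC and length trend taken out, where MKI67 was at 0.88, TOP2A at 0.50, BUB1 at 0.66 and RRM2 at 0.80. The lowest difference in EZH2i was that of PCNA at 0.31. The EZH2i median was 0.79, or 0.60 once the trend over GC content and length was taken out, and the CDK2i median was −0.24. AURKA, a mitotic kinase, passed as lower in CDK2i, 1 of the 8 that reached the minimum, against 8.07% of all genes. Its level was 19.9 FPKM in vehicle and 4.94 in CDK2i, a difference of −2.01, and MCM2 was highest in CDK2i at 0.19. The part of the dividing cells in the differences of CDK1 and CCNA2 was not tested.

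The E2F and retinoblastoma families, which control transcription of CCNE1, CCNA2 and CDK1, differed among themselves. Of 13 genes 10 were expressed. In CDK2i 3 reached the minimum and 0 passed both thresholds, against 11.3% of all genes. E2F3 and RB1 passed as higher in EZH2i, 2 of the 8 that reached the minimum, against 8.93% of all genes. E2F3 was at 6.70 FPKM in the vehicle tumor, 2.67 with CDK2i and 14.2 with EZH2i, differences of −1.33 and 1.09. RB1 was at 3.79, 6.05 and 9.90 FPKM, differences of 0.67 and 1.38, the highest of the expressed genes of the list in both tumors. E2F7, which was not among the expressed genes, had a difference of 1.71 in EZH2i. With the GC and length trend taken out, E2F3 was at 0.55 and RB1 at 0.62 in EZH2i, so that neither passed. E2F6, a repressor, had the lowest difference of the expressed members in CDK2i at −1.37, and E2F1 the lowest in EZH2i at −0.31. The list had a median of −0.31 with CDK2i and 0.69 with EZH2i, or −0.18 and 0.225 with the trend removed.

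**Figure D4:**
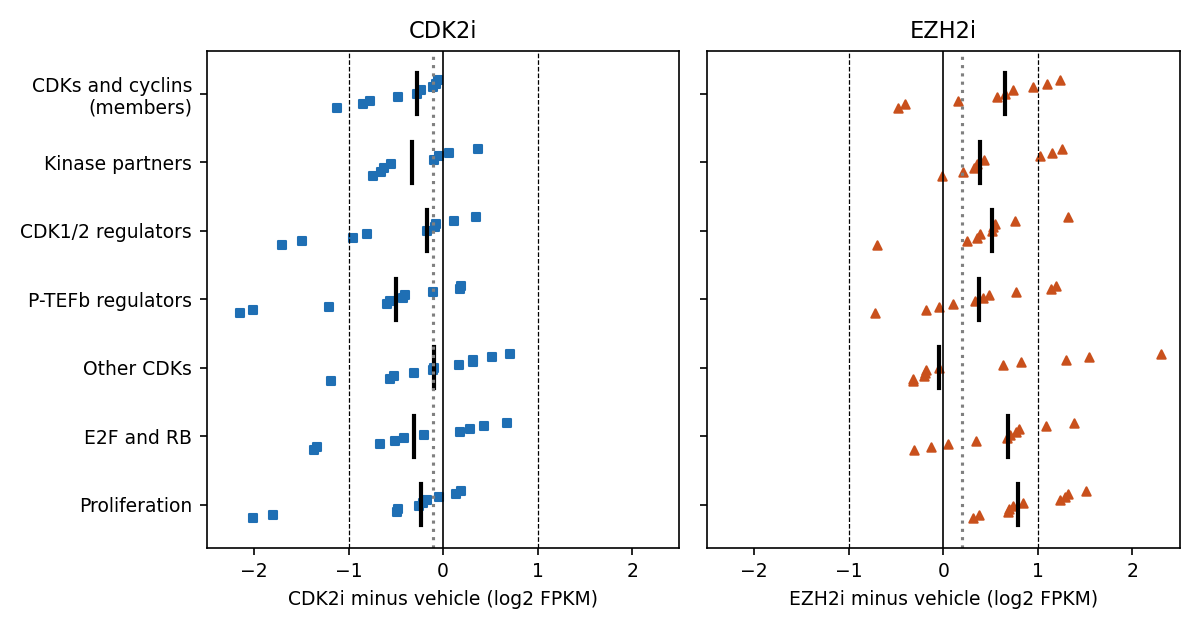
Difference from vehicle in log2 FPKM (horizontal axis) in CDK2i (left) and EZH2i (right) of the expressed genes of each list, 1 symbol per gene, with a black bar at the list's median, a dotted line at the median expressed gene and dashed lines at a fold change of 2. HEXIM1 and MEPCE lie at −2.15 and −2.01 in CDK2i, and CDK6 lies at 2.30 in EZH2i.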

How the data were processed

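RNAseq of 3 SUM-149 xenograft tumors was analyzed (1 library each for vehicle, CDK2i and EZH2i). The authors deposited log2 FPKM per gene symbol, made with hg19 (GRCh37) as reference, and the submitters' processing notes name CASAVA and STAR. The counting tool is not given in the sources used here. Values of −9 were taken as an FPKM of 0. Differences from vehicle were taken without a pseudocount. A gene passed when its fold change was above 2 and its higher log2 FPKM above 3, the thresholds of the study, whose limma p-value could not be repeated. Depth was recovered from steps of 1 fragment over weakly expressed genes with 1 annotated transcript, between 1271 and 1439 per library. Of these genes, 83.9% to 85.7% lay within 0.1 of a whole fragment. That share was taken at the depth with the best fit, so it is no independent check of the depth. Fragment numbers of a gene used the length of its MANE or canonical transcript in GENCODE 44 and are approximate, and intervals are exact binomial intervals of the ratio at 95%. Values of GC content and length were found for 92.6% of the expressed genes, 704 of them through an older symbol, and the trend was a polynomial of degree 3 in each, fitted to the 10204 such genes that encode no ribosomal protein. Named genes were the members and, of each list, those past both thresholds or with the extreme differences among its expressed genes, together with LARP7, CDK5R1, CDK5R2 and E2F7, which were added after their values were seen. The members and lists were chosen with earlier results of these data known. Calculations were tested on simulated data. Python 3.11.15, numpy 2.4.6, pandas 2.3.3, scipy 1.17.1 and matplotlib 3.10.9 were used.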

Additional observations from a re-analysis of the deposited data

How the results depend on the processing

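No paired analysis was possible because each condition has 1 library. Leaving out a replicate could not be run for the same reason. Settings tried in place of those reported were a fold of 1.5 or 3, a minimum of log2 FPKM 1 or 5 or none, pseudocounts of 1 and 0.1, 3 rescalings and removal of the GC and length trend. The number of members past both thresholds depended on the settings. In CDK2i it was 0 as reported, 2 (CDK7 and CDK9) with a fold threshold of 1.5, and 1 (CCNE1) with no minimum or a minimum of log2 FPKM 1. In EZH2i it was 2 as reported, 5 with a fold threshold of 1.5, 0 with one of 3, 1 (CDK1) with a minimum of log2 FPKM 5, 1 (CCNA2) after centring, 3 with equal summed FPKM, CDK12 being added, and 0 with the trend removed. The number of members higher than vehicle in CDK2i was 0 as reported, and 4 after centring, with equal summed FPKM and with the trend removed. The median difference of the members in EZH2i was 0.69 as reported, 0.93 with equal summed FPKM and 0.30 with the trend removed. Under the 6 rescalings, pseudocounts and corrections, 5 of the 10 members kept their sign throughout in CDK2i (CDK1, CDK7, CDK9, CDK12 and CCNE1) and 8 in EZH2i, the exceptions being CDK7 and CDK13. The equal-sum scalings and the centring shift all genes of a library alike, and the pseudocounts cannot turn a sign, by construction. Counting error limits CCNE2, with at most about 116 fragments in a library, more than any other member.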
